A study of Mus musculus with 18 samples.

Results

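Transcripts of 10 mouse genes that make and repair the programmed breaks of meiotic DNA were followed in cultured testes, out of 22657 genes with a value in every sample. The genes were chosen by name, by matching the NCBI gene numbers of the deposited table to the symbols Spo11, Prdm9, Mei1, Mei4, Rec114, Dmc1, Meiob, Spata22, Psmc3ip and Mnd1, and each symbol was found. The question of the ex vivo experiment was how alginate oligosaccharides (AOS), short sugar chains from brown algae, act on testes damaged by busulfan, an alkylating agent toxic to dividing germ cells. A0, A10 and A50 were testes of ICR mice that received no busulfan. B0, BA10 and BA50 were testes of age-matched ICR mice injected once with busulfan at 40 μg per g body weight at 3 weeks of age, and all testes were taken 2 weeks after the injection. Testes of both kinds were cultured for 48 h with AOS at 0 (A0, B0), 10 (A10, BA10) or 50 (A50, BA50) μg/mL, with 6 testes per treatment and 3 RNA-seq samples per group, 18 in all. The series design text gives the AOS doses per kg body weight instead, and the unit of the sample labels is used here. Each sample is a mixture of all testis cells, so fewer spermatocytes and less RNA per spermatocyte cannot be told apart in these values.

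In early meiotic prophase, PRDM9 marks recombination hotspots by methylating histone H3, and SPO11 with its partner cuts the DNA at these sites. MEI1, MEI4 and REC114 are accessory proteins without which the cuts are not made. After resection, single-stranded DNA is coated, the recombinase DMC1 forms filaments on it, MEIOB with SPATA22 binds the single strands, and the PSMC3IP (HOP2) and MND1 pair helps the filaments invade the homologous chromosome. Loss of any of these proteins in mice disturbs or stops meiosis in spermatocytes.

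Values are FPKM (fragments scaled to gene length and to the size of the library), and changes are differences of log2(FPKM + 1), which understate changes of genes with low values. A gene was tested where at least 3 samples reached 1 FPKM, which left 15790 genes and 8 of the 10 members. Mei4, which reached 1 FPKM in 0 samples, and Spata22, which did so in 1, were left out by this filter. Mei1 and Dmc1 reached 1 FPKM in 0 busulfan samples and Rec114 in 1, so they passed the filter through the untreated samples only, or nearly so, and had to differ. A gene is called changed here at an adjusted p of at most 0.001 (limma, Benjamini-Hochberg over all 15790 genes) and a change of 1 or more in either direction on the log2 scale.

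The whole table gave the following setting. FPKM summed to 463970 to 511274 per sample, 14291 to 15040 genes reached 1 FPKM, and the number of reads is unknown. A10 replicate 3 stood apart from the other A10 samples (r of 0.929 and 0.941). Among the defining markers, the spermatocyte gene Sycp3 lay at 108.88 to 137.18 FPKM without and 8.25 to 14.82 FPKM with busulfan. The spermatid gene Prm1 lay at 679.41 to 1489.60 and 621.92 to 3056.72 FPKM, and the spermatogonial gene Zbtb16 at 1.90 to 4.02 and 1.00 to 2.90 FPKM, although other spermatogonial genes changed more, as given further on. Sox9 (Sertoli cells), Star (Leydig cells), Acta2 (peritubular cells) and Adgre1 (macrophages) were present in both, with untreated medians of 14.48, 192.95, 44.52 and 6.89 FPKM and busulfan medians of 17.13, 351.61, 39.64 and 8.50 FPKM. The 6 fat genes of a marker list summed to 48.2 to 320 FPKM in B0, against 4.13 to 6.90 FPKM in A0, 5.82 to 16.8 FPKM in BA10 and 4.39 to 11.9 FPKM in BA50, and Adipoq was 19.27, 6.21 and 5.46 FPKM in B0.

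In the 9 untreated samples the members covered a wide range of levels per length. Psmc3ip was far above the others, with a median of 65.48 FPKM and a range from 27.47 to 89.64 FPKM. Meiob (median 9.71 FPKM), Spo11 (7.16 FPKM), Dmc1 (6.43 FPKM) and Mnd1 (5.67 FPKM) followed, each overlapping its neighbour in this order. Prdm9 (3.17 FPKM), Rec114 (2.64 FPKM) and Mei1 (1.54 FPKM) came next, and Mnd1, Prdm9, Rec114 and Mei1 each overlapped the next in order. Mei4 (0.28 FPKM) lay below all values of Mei1. Spata22 (0.26 FPKM) ranged from 0.00 to 1.64 FPKM and overlapped both.

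**Figure D1:**
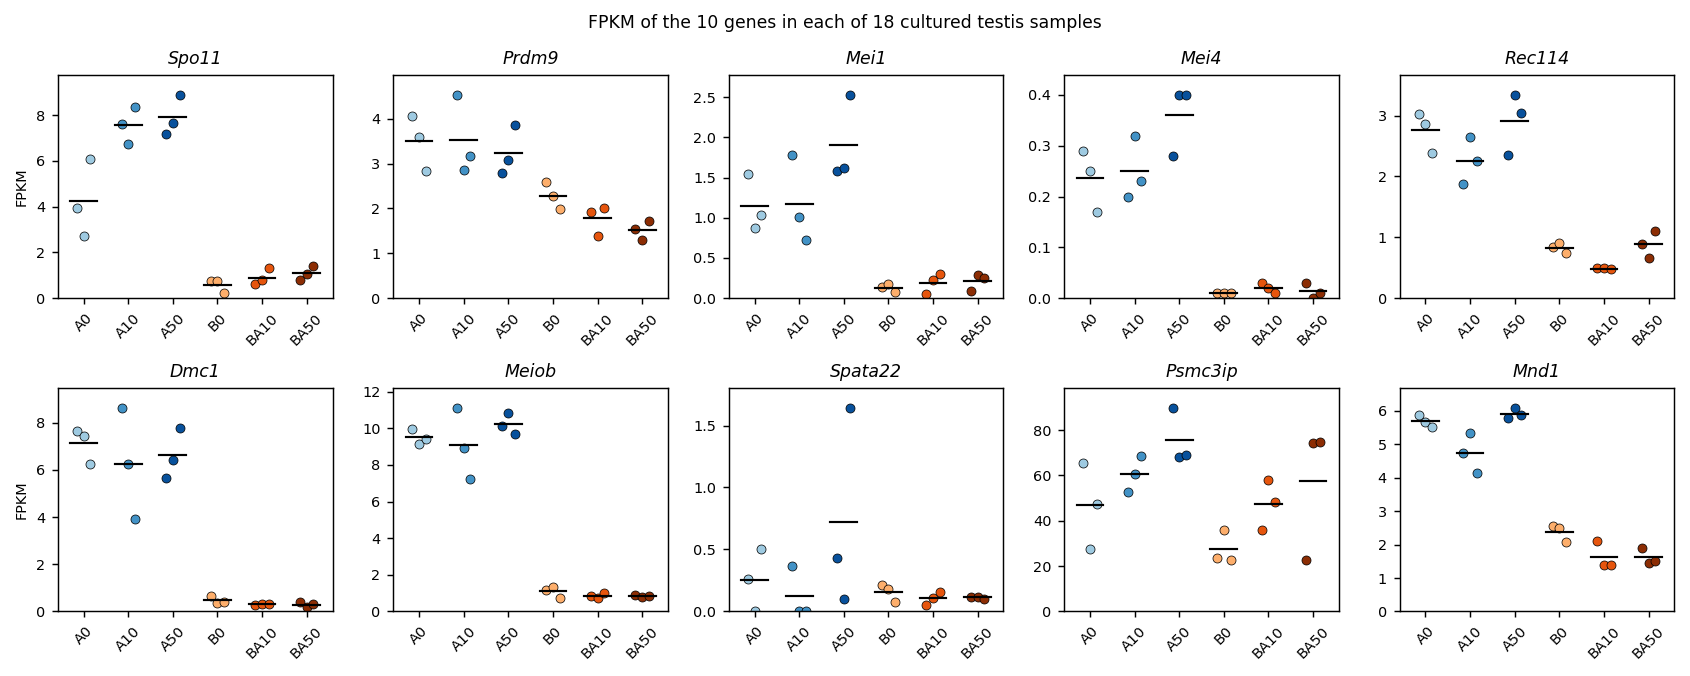
FPKM of the 10 genes in each of the 18 samples, with 1 panel per gene and the 6 groups on the x axis. Points are samples and the short lines are group means, and the y axes differ between panels. The busulfan groups B0, BA10 and BA50 sit below A0, A10 and A50 in 8 panels, while Spata22 and Psmc3ip overlap.

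Of the 5 members that act in break formation, Spo11 had the largest change on the log2(FPKM + 1) scale. Spo11 (NCBI gene 26972, chr2:172977700-172993576, plus strand, GRCm38) was at 3.94, 2.72 and 6.08 FPKM in A0, at 7.61, 6.76 and 8.36 FPKM in A10 and at 7.16, 7.67 and 8.89 FPKM in A50. It was at 0.77, 0.75 and 0.24 FPKM in B0, at 0.60, 0.79 and 1.30 FPKM in BA10 and at 0.80, 1.07 and 1.39 FPKM in BA50. Every busulfan sample was below every untreated sample. The log2 change of Spo11 was -1.69 in B0 compared to A0 (SE 0.22, limma adjusted p = 6.45e-05), -2.19 in BA10 compared to A10 and -2.10 in BA50 compared to A50. Averaged over the 3 AOS concentrations its mean FPKM was 7.68-fold lower with busulfan.

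Prdm9, which places the breaks rather than making them, had the smallest fold of the 5 members that act in break formation, with a mean FPKM 1.84-fold lower with busulfan. Prdm9 (NCBI gene 213389, chr17:15543079-15564354, minus strand) was at 4.06, 3.60 and 2.84 FPKM in A0, at 4.53, 2.86 and 3.17 FPKM in A10 and at 2.78, 3.07 and 3.85 FPKM in A50. With busulfan it was at 2.59, 2.28 and 1.99 FPKM in B0, at 1.93, 1.39 and 2.02 FPKM in BA10 and at 1.53, 1.29 and 1.71 FPKM in BA50. The untreated and busulfan samples did not overlap, and all 18 samples were above 1 FPKM. The log2 change was -0.45 in B0 compared to A0 (SE 0.16, limma adjusted p = 0.0756), which did not pass the test. It was -0.69 in BA10 compared to A10 (adjusted p = 0.00578) and -0.75 in BA50 compared to A50 (adjusted p = 0.00282), and the average of -0.63 (adjusted p = 5.45e-05) stayed under the limit on size.

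The 3 accessory break factors were all lower with busulfan in every sample. Mei1 (NCBI gene 74369, chr15:82069996-82126814, plus strand) was at 1.54, 0.87 and 1.03 FPKM in A0, 1.78, 1.01 and 0.72 FPKM in A10, and 1.58, 1.62 and 2.53 FPKM in A50. It was at 0.14, 0.17 and 0.08 FPKM in B0, 0.05, 0.22 and 0.30 FPKM in BA10, and 0.09, 0.29 and 0.25 FPKM in BA50. Mei1 changed by -0.91 in B0 compared to A0 (SE 0.18, limma adjusted p = 0.00283), which is under the limits of a call although its mean FPKM was 8.82-fold lower. In BA10 compared to A10 it changed by -0.84 (limma adjusted p = 0.00401), also not called. In BA50 compared to A50 it changed by -1.25 (limma adjusted p = 0.000137), which is called. The average just reached the limit on size, with a mean FPKM 7.97-fold lower, and fell short of it when any of 6 samples was left out (-0.94 to -0.99). These were A0, A10, BA10 and BA50 replicate 1, A50 replicate 3 and B0 replicate 3.

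Rec114 binds MEI4. It (NCBI gene 73673, chr9:58652850-58743964, minus strand) was at 3.02, 2.86 and 2.39 FPKM in A0, at 1.87, 2.64 and 2.26 FPKM in A10 and at 2.36, 3.34 and 3.04 FPKM in A50. With busulfan it was at 0.84, 0.91 and 0.74 FPKM in B0, at 0.49, 0.49 and 0.48 FPKM in BA10 and at 0.89, 0.66 and 1.11 FPKM in BA50. The lowest untreated sample was above the highest busulfan sample. Its log2 change was -1.03 in B0 compared to A0 (SE 0.13, limma adjusted p = 5.09e-05), -1.12 in BA10 compared to A10 and -1.05 in BA50 compared to A50. The first of these calls was lost without A0 replicate 1 (-0.98) or B0 replicate 3 (-0.999), and the last without A50 replicate 2 (-0.97) or BA50 replicate 2 (-0.96). Rec114 shares 344 exonic bases with Nptn on the opposite strand, the library does not mark strand, and Nptn was at 49.28 to 76.46 FPKM without and 68.80 to 97.28 FPKM with busulfan, the opposite direction.

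Mei4, the partner of Rec114, was near the last decimal of the table. Mei4 (NCBI gene 75033, chr9:81863670-82206007, plus strand) was at 0.29, 0.25 and 0.17 FPKM in A0, 0.20, 0.32 and 0.23 FPKM in A10, and 0.28, 0.40 and 0.40 FPKM in A50. In busulfan samples it was at 0.00 to 0.03 FPKM, and it was listed at 0 in 1 of them. The groups did not overlap, and an exact two-sided permutation test within the AOS concentrations gave p = 0.00025 for log2(FPKM + 1), the smallest that 8000 splits allow. Its values have at most 2 digits, so no fold is given here.

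On the log2(FPKM + 1) scale, the largest falls among the members were those of the strand exchange genes Dmc1 and Meiob. Dmc1, the meiosis-specific recombinase (NCBI gene 13404, chr15:79561497-79605109, minus strand), was at 7.65, 7.45 and 6.24 FPKM in A0, at 8.61, 6.25 and 3.92 FPKM in A10 and at 5.66, 6.43 and 7.77 FPKM in A50. It was at 0.65, 0.37 and 0.42 FPKM in B0, at 0.26, 0.31 and 0.32 FPKM in BA10 and at 0.38, 0.18 and 0.32 FPKM in BA50. Every busulfan sample was under 1 FPKM and every untreated sample well above it. The log2 change of Dmc1 was -2.46 in B0 compared to A0 (SE 0.19, limma adjusted p = 4.41e-07), -2.43 in BA10 compared to A10 and -2.55 in BA50 compared to A50. Its mean FPKM over the concentrations was 18.7-fold lower with busulfan.

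Meiob, which coats single-stranded DNA (NCBI gene 75178, chr17:24804289-24839788, plus strand), was at 9.97, 9.17 and 9.40 FPKM in A0, at 11.10, 8.91 and 7.21 FPKM in A10 and at 10.15, 10.85 and 9.71 FPKM in A50. It was at 1.19, 1.34 and 0.74 FPKM in B0, at 0.85, 0.73 and 1.03 FPKM in BA10 and at 0.88, 0.78 and 0.86 FPKM in BA50. The gap between the groups was wider than the spread within either. On the log2 scale Meiob changed by -2.34 in B0 compared to A0 (SE 0.14, limma adjusted p = 2.56e-08), -2.41 in BA10 compared to A10 and -2.61 in BA50 compared to A50. Its mean FPKM was 10.3-fold lower with busulfan.

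Spata22, the partner that MEIOB needs, could not be compared in the same way. Spata22 (NCBI gene 380709, chr11:73329741-73346044, plus strand) was at 0.26, 0.00 and 0.50 FPKM in A0, 0.37, 0.00 and 0.00 FPKM in A10, 0.43, 0.10 and 1.64 FPKM in A50, and between 0.05 and 0.21 FPKM in all busulfan samples. The groups overlapped, 3 untreated samples were listed at 0 while Meiob was at 7.21 to 9.17 FPKM in the same samples, and the exact two-sided permutation test gave p = 0.174. Spata22 shares 1025 exonic bases with the gene model Gm49340 on the same strand, which was not found in the table, and the part of this overlap in the values was not tested.

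Mnd1 and Psmc3ip encode the subunits of one complex and had different profiles. Mnd1 (NCBI gene 76915, chr3:84087933-84155786, minus strand) was at 5.87, 5.67 and 5.52 FPKM in A0, at 4.73, 5.34 and 4.14 FPKM in A10 and at 5.80, 6.08 and 5.87 FPKM in A50. It was at 2.56, 2.49 and 2.07 FPKM in B0, at 2.11, 1.40 and 1.39 FPKM in BA10 and at 1.90, 1.44 and 1.52 FPKM in BA50. The groups did not overlap, and every sample was above 1 FPKM. Its log2 change was -0.99 in B0 compared to A0 (SE 0.12, limma adjusted p = 3.77e-05), just under the limit on size with a mean FPKM 2.40-fold lower, and it was -1.13 in BA10 compared to A10 and -1.40 in BA50 compared to A50, both called.

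Psmc3ip (NCBI gene 19183, chr11:101091823-101095436, minus strand) was at 65.48, 27.47 and 47.46 FPKM in A0, at 52.69, 60.79 and 68.44 FPKM in A10 and at 89.64, 67.97 and 69.12 FPKM in A50. It was at 23.61, 36.12 and 22.61 FPKM in B0, at 36.04, 57.92 and 48.43 FPKM in BA10 and at 22.83, 74.39 and 74.80 FPKM in BA50. The groups overlapped in each comparison, and the samples of A0 and of BA50 were far apart among themselves. The log2 change was -0.70 in B0 compared to A0 (SE 0.39, limma adjusted p = 0.306), -0.36 in BA10 compared to A10 and -0.56 in BA50 compared to A50, none of which passed the test, and the average was -0.54 (adjusted p = 0.0723). Single samples moved these values: BA50 compared to A50 was -0.01 without BA50 replicate 1, BA10 compared to A10 was -0.18 without BA10 replicate 1, and B0 compared to A0 was -0.42 without A0 replicate 1. The average ranged from -0.36 without BA50 replicate 1 to -0.65 without A0 replicate 2, and it passed at 0.05 without A0 replicate 2, BA50 replicate 2 or BA50 replicate 3 (adjusted p = 0.0307, 0.0386 and 0.0421, limma). Psmc3ip shares 385 exonic bases with Mlx on the opposite strand, which was at 12.33 to 18.25 FPKM without and 16.40 to 20.56 FPKM with busulfan, below Psmc3ip in every sample.

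Counted together, 4 of the 10 members, of which 8 were tested, were called lower in B0 compared to A0, where 2.49% of all tested genes were. In BA10 compared to A10, 5 of 10 were called lower against a background of 3.00%, and in BA50 compared to A50, 6 of 10 against 3.36%. With only the compared groups in the fit, these counts were 2, 0 and 4. Averaged over the concentrations, Spo11, Mei1, Rec114, Dmc1, Meiob and Mnd1 were called lower, 6 of 10, against 3.52%. Of these, Mei1, Dmc1 and Rec114 passed the filter through the untreated samples only, or nearly so, and had to differ. The members were also chosen with earlier results of these data known, so the counts describe these genes and are not independent support. No member was called higher in these 4 comparisons, where 0.0507%, 0.0127%, 0.0380% and 0.0887% of tested genes were. The 3 comparisons share no sample, and the same 8 members lay without overlap below the untreated group in each of them (background 22.7%, 20.2% and 25.7%) and over all 18 samples (background 9.66%). Mei4, among these 8, is outside the tested genes on which these shares rest. With 3 samples against 3 the exact permutation test cannot go below 0.1, which is its value for each of those 8 in each comparison. The median of all tested genes was -0.04 in B0 compared to A0 and 0.01 in the average. The fat genes were high in B0 and at most 16.8 FPKM in sum in BA10 and BA50, and their part in the members' values was not tested.

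**Figure D2:**
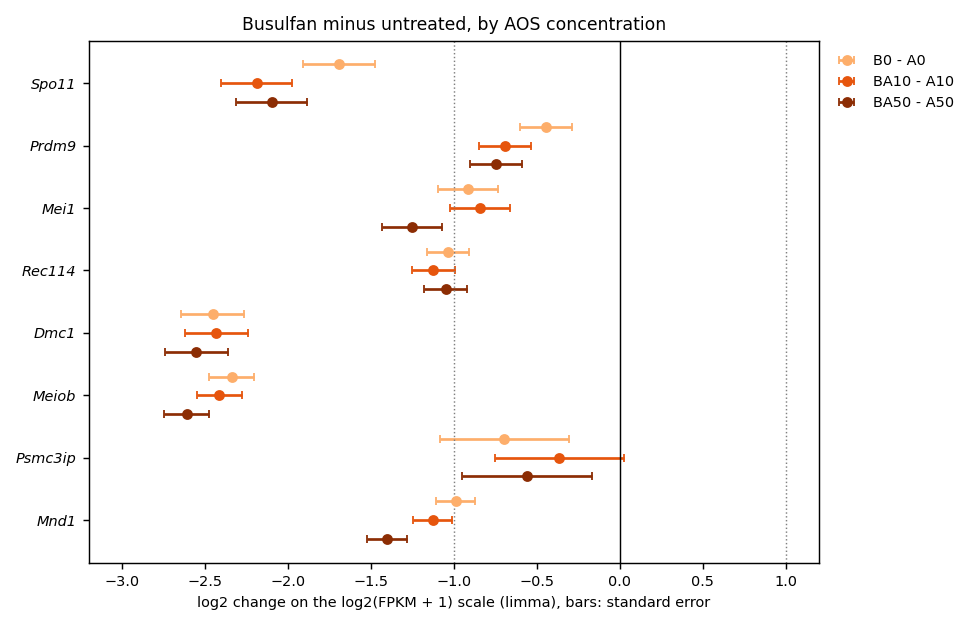
Log2 change of the 8 tested members with busulfan at 0, 10 and 50 μg/mL AOS, from differences of log2(FPKM + 1) with bars of 1 SE, and dotted lines at the limit of a call. Dmc1 and Meiob lie beyond -2.3 at each concentration, Prdm9 between -0.45 and -0.75, and Psmc3ip has the widest bars.

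Levels of the members were also compared with each other within each sample. Prdm9 was 0.455 to 0.809 times as high as Dmc1 in the untreated samples, with a median of 0.491, and 3.99 to 7.42 times as high with busulfan, with a median of 5.34. The difference in this ratio was 3.38 on the log2 scale, and 1.85 once 1 FPKM was added to both genes. The ratio of Psmc3ip to Mnd1 was 4.85 to 16.5 without busulfan, 9.22 to 14.5 in B0, 17.1 to 41.4 in BA10 and 12.02 to 51.7 in BA50. Meiob was 1.23 to 1.84 times as high as Dmc1 in untreated samples and 1.76 to 4.33 times with busulfan, and this difference of 0.89 on the log2 scale was 0.02 once 1 FPKM was added to both genes. Dmc1 lay at 0.18 to 0.65 FPKM with busulfan, so the ratios over it rest on low values. These 3 ratios were chosen after the values were seen and carry no test.

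**Figure D3:**
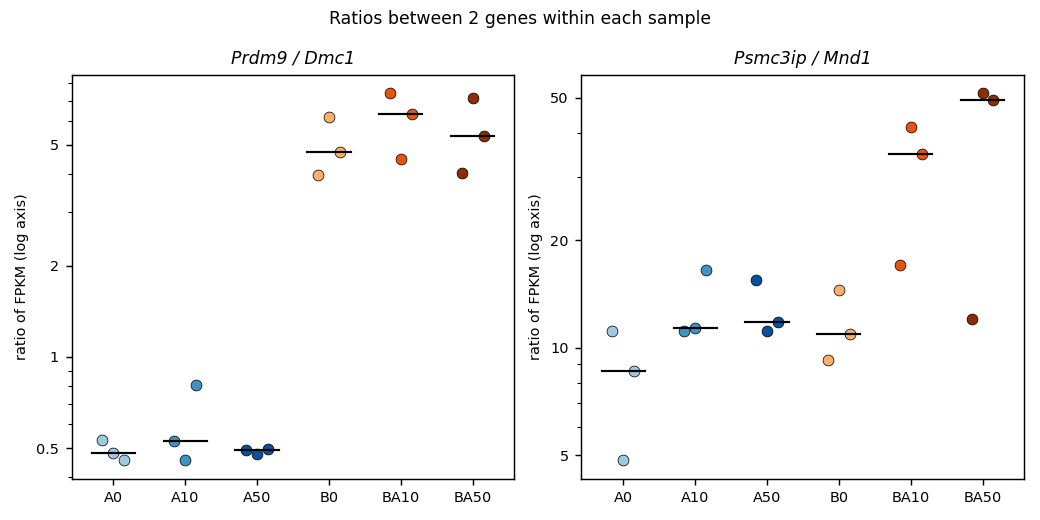
Ratio of FPKM within a sample for Prdm9 over Dmc1 (left) and Psmc3ip over Mnd1 (right), on log axes, by group. Points are samples and short lines are group medians, and the ratio of Prdm9 to Dmc1 is below 1 in each untreated sample and above 3 in each busulfan sample.

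The sequences just before the start of members with clearly different changes are shown because the genes moved together to different degrees: Dmc1 with a large fall, Rec114 with a smaller one, Prdm9 with a change under the limit on size and Psmc3ip with no call. The RefSeq promoter table used here (GRCm38.p6) matched 8 of the 10 members, Spo11 and Meiob not among them. Each line is the 250 bases before the start, 5′ to 3′ on the minus strand, on which all 4 genes lie: Dmc1 at chr15:79605110-79605359, Rec114 at chr9:58741560-58741809, Prdm9 at chr17:15564355-15564604 (the outer of 2 RefSeq starts) and Psmc3ip at chr11:101095436-101095685. Capitals mark CACGTG (the E-box of MAX and MGA), GCGGGAA (an E2F core) or CCTCAG (the core of the motif of STRA8 and MEIOSIN) on either strand.
Dmc1: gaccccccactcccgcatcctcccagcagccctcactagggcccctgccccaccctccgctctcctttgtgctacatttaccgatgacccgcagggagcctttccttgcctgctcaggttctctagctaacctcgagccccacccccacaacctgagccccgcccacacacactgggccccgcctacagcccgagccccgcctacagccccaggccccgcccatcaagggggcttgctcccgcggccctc
Rec114: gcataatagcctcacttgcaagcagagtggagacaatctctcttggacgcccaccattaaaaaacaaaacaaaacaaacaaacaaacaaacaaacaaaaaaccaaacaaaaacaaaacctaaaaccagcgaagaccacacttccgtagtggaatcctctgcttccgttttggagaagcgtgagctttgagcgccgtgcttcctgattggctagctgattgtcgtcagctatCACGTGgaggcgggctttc
Prdm9: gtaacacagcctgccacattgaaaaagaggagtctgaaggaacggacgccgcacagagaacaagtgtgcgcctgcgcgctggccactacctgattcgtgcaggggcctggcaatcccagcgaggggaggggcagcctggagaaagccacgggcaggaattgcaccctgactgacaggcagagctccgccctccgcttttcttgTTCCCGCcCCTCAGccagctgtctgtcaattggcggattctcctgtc
Psmc3ip: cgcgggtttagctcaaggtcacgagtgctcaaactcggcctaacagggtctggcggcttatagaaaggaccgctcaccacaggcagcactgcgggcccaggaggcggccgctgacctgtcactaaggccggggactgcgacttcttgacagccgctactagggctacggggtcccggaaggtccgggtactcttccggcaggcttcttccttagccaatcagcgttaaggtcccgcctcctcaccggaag
CACGTG was found in Rec114, 19 bases before the start, and in 6.98% of the windows of 16319 genes. The RefSeq windows of Rec114 and Mei1 lie inside the gene spans given above, which are from GENCODE, so the 2 annotations place these starts differently. The Prdm9 window shown held GCGGGAA on the reverse strand 47 bases and CCTCAG 39 bases before the start, which 5.29% and 22.5% of all windows hold. The window of the inner Prdm9 start held neither. The shares count only the first listed window of each gene, which for Prdm9 is the inner window. None of the 3 was found in the windows of Dmc1, Psmc3ip, Mei1, Mei4, Spata22 or Mnd1. The short MYB core AACNG, not capitalised, was in 6 of the 8 members, Prdm9, Mei4, Rec114, Spata22, Psmc3ip and Mnd1, and in 73.0% of all windows. These matches describe letters in the windows only.

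Other genes of the same steps were given as lists. Of 12 tested genes in a broad list of break machinery and its regulators, 7 were called lower averaged over the concentrations (background 3.52%). At an adjusted p under 0.05 (limma), 12 of 12 had a negative change (background 24.8%), with a median of -1.11 on the log2 scale against 0.01 over all genes. They include Hormad1 (-3.74), an axis protein that recruits break factors, at 45.46 to 68.12 FPKM without and 2.15 to 4.88 FPKM with busulfan. Hells (-2.34), the chromatin remodeller that acts with PRDM9, and Zcwpw1 (-2.22), the reader of its histone marks, were called too, as were Ankrd31 (-1.59) and Iho1 (-1.23), which work with REC114 and MEI4. Gm960 (-1.11), listed elsewhere as Top6bl and encoding the partner of SPO11, and Mcmdc2 (-1.12) complete the 7. No role in making breaks is claimed here for Mcmdc2. With busulfan Gm960 was at 0.24 to 0.42 FPKM and Mcmdc2 at 0.55 to 0.88 FPKM. Both passed the filter through the untreated samples only and had to differ. Members of the general break response changed less: Mre11a by -0.46, Atm by -0.46, Rad50 by -0.36 and Nbn by -0.27. Cxxc1, a PRDM9-binding protein, changed by -0.31.

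Of 19 tested genes of strand exchange, 9 were called lower (background 3.52%) and 17 were lower at an adjusted p under 0.05 (background 24.8%), with a median of -0.89. Fignl1 (-2.42), which takes recombinase filaments apart, had the largest fall. Hsf2bp (-1.45), Brca2 (-1.05) and Rad51c (-1.24) act in loading recombinase, Exo1 (-1.24) resects ends, Rad54b (-1.38) remodels filaments, and Rpa1 (-1.03) and Rpa2 (-1.05) coat single strands. Rad51ap2 (-1.44) completes the 9. With busulfan, Rad51ap2 was at 0.20 to 0.44 FPKM, Rad54b at most at 1.00 FPKM and Exo1 at most at 1.04 FPKM. They passed the filter through the untreated samples only, or nearly so, and had to differ. Rpa3 (0.04) and Swsap1 (0.02) were the 2 of 19 that did not pass the test (adjusted p = 0.793 and 0.857). In B0 compared to A0 the counts called were 6 of 12 and 7 of 19, against 2.49% of all tested genes.

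**Figure D4:**
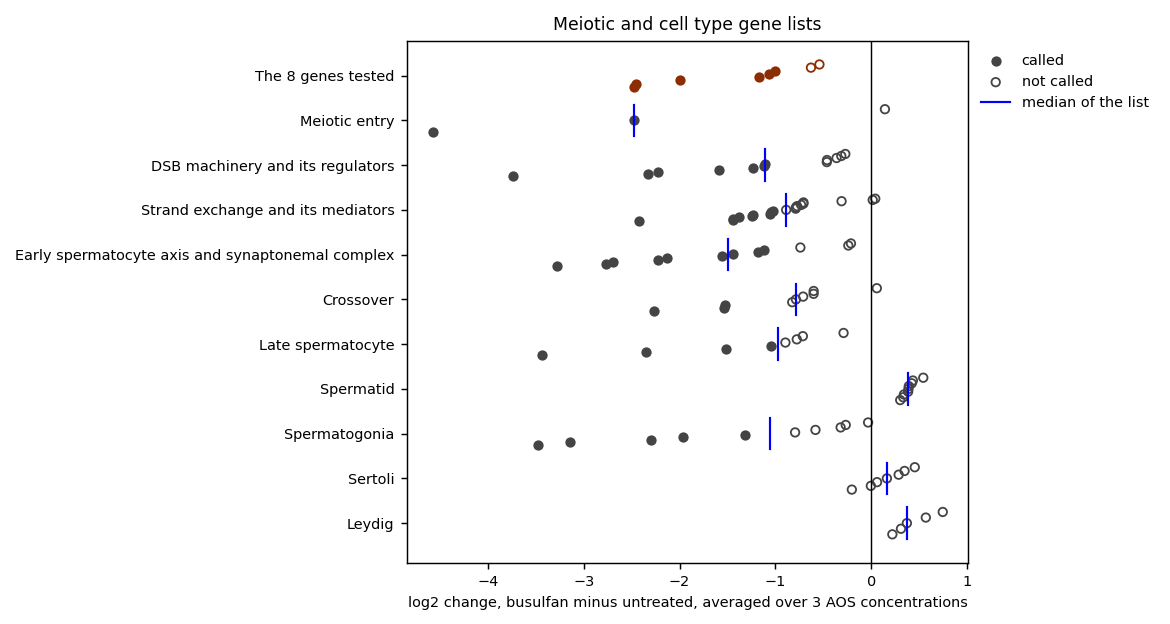
Log2 change with busulfan averaged over the AOS concentrations for the members and the genes of the recombination and cell type lists, 1 point per tested gene, filled where called, with blue lines at list medians. Break, strand exchange and axis genes lie mostly below 0, while spermatid and Sertoli genes lie near or above it.

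The same samples were compared by stage. Of the 3 meiotic entry genes, Stra8, the meiotic initiator, was at 14.16 to 35.41 FPKM without and 0.00 to 0.12 FPKM with busulfan. Bhmg1, the gene of its partner MEIOSIN, was at 3.17 to 7.75 FPKM and 0.03 to 0.13 FPKM. Rec8, a meiotic cohesin, overlapped, at 7.41 to 14.66 FPKM and 6.48 to 18.15 FPKM (log2 change 0.14, limma adjusted p = 0.51). Of 10 tested spermatogonial genes, 5 were called lower (median -1.06), against 3.52% of all tested genes, among them Dazl (-3.48), an RNA-binding protein of germ cells, and Stk31 (-3.15), while Zbtb16 was not called (-0.32, adjusted p = 0.0637). Of 12 axis and synaptonemal complex genes 9 were called lower (median -1.50), of 9 crossover genes 3 (-0.79) and of 8 late spermatocyte genes 4 (-0.97), against the same 3.52%. Stra8, Bhmg1, Sohlh1, Hormad2, Rad21l, Ccnb1ip1, Hfm1 and Shoc1 stayed under 1 FPKM in every busulfan sample. Sohlh2, Tex11 and Rnf212 did so in nearly all. These genes passed the filter through the untreated samples only, or nearly so, and had to differ. The counts of these lists are not independent support. The 9 spermatid genes had a median of 0.39, and 1 of them was higher at an adjusted p under 0.05 (limma). The mean log2(FPKM + 1) of the tested members minus that of the axis genes was -2.33 to -1.91 in untreated and -2.22 to -1.52 in busulfan samples, and minus that of the late spermatocyte genes it was -2.26 to -1.04 and -2.00 to -1.09. Both pairs of ranges overlap over all samples. Without AOS the difference from the axis genes did not overlap, at -1.96 to -1.91 in A0 and -1.76 to -1.52 in B0. The members' mean lay below that of the axis genes in every sample, and log2(FPKM + 1) understates falls of low genes. These differences therefore cannot compare the size of the falls. The part of cell numbers in the members' falls was not tested.

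The genes whose profile over the 18 samples was most like the mean of the tested members were Cdan1 (Pearson r = 0.993), Gm17266, Atr, Mov10l1, Dtl, Gpat2, Hormad1 and Slc25a31 (0.990), as a description. The samples form 2 clusters by busulfan, which sets such values. Mov10l1, a piRNA factor of spermatocytes, was at 13.89 to 23.89 FPKM without and 0.27 to 0.65 FPKM with busulfan. Atr, the kinase that signals unrepaired breaks, was at 28.73 to 50.33 FPKM and 7.20 to 10.41 FPKM. Among the members themselves, r with the mean of the others was 0.983 for Meiob, 0.841 for Prdm9 and 0.441 for Psmc3ip.

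AOS changed no member past the test, with or without busulfan. A10 and A50 were both compared to A0, and BA10 and BA50 both to B0, so each pair of comparisons shares its control samples. Over the 8 tested members the lowest adjusted p (limma) was 0.322 in A10 compared to A0, 0.208 in A50 compared to A0, 0.749 in BA10 compared to B0 and 0.118 in BA50 compared to B0. Of all tested genes, 0% were called in either direction in each of these comparisons. At an unadjusted p under 0.05, A10 compared to A0 had 712 genes higher and 1693 lower, A50 compared to A0 had 1555 and 916, BA10 compared to B0 had 298 and 500, and BA50 compared to B0 had 2006 and 1835. The difference between the AOS changes with and without busulfan was also not called for any member (lowest adjusted p 0.91 at 10 and 0.741 at 50 μg/mL, limma), where 285 genes had a more positive and 342 a more negative change at an unadjusted p under 0.05 at 10 μg/mL, and 462 and 530 at 50 μg/mL. Of the members, an unadjusted p under 0.05 was reached by Spo11 in A10, by Spo11 and Mei1 in A50, by Mnd1 and Rec114 in BA10, by Mnd1, Prdm9 and Psmc3ip in BA50, and by Mnd1 in the difference at 50 μg/mL.

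Without busulfan, Spo11 came closest. All A10 and A50 samples were above all A0 samples. The log2 change was 0.75 in A10 (SE 0.22, adjusted p = 0.322 in limma) and 0.81 in A50 (SE 0.22, adjusted p = 0.208 in limma). Genes with all samples higher made up 7.81% and 17.6% of those tested. A0 was spread widely, with replicate 2 lowest, and the late spermatocyte gene Piwil1 had the same order there, at 17.77, 9.13 and 22.06 FPKM. Piwil1 was at 26.72 to 27.36 FPKM in A10 and 25.92 to 32.18 FPKM in A50. Of the same list, Ccna1 (36.58, 20.66 and 39.26 FPKM) and Pou5f2 (7.69, 5.05 and 9.05 FPKM) also had this order in A0. So did Mybl1 (7.96, 5.99 and 9.54 FPKM) and Adam2 (54.12, 36.18 and 55.40 FPKM). Ovol2 (9.68, 10.12 and 10.36 FPKM in A0), Aurkc (4.98, 4.13 and 3.62 FPKM) and Nme8 (39.61, 32.43 and 33.69 FPKM) did not have it. The 8 late spermatocyte genes summed to 124 to 183 FPKM in A0, 195 to 334 FPKM in A10 and 254 to 278 FPKM in A50, and their part in the Spo11 values was not tested. Mei1 and Psmc3ip were also above A0 in all A50 samples, with log2 changes of 0.44 (adjusted p = 0.29) and 0.75 (adjusted p = 0.348). Mnd1 was below A0 in all A10 samples (-0.23, adjusted p = 0.346), where 12.2% of genes were.

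With busulfan, the members split in direction and none passed the test. In BA50 compared to B0, Mnd1 (-0.37, SE 0.12, limma adjusted p = 0.118) and Prdm9 (-0.39, SE 0.16, adjusted p = 0.159) were lower in 3 of 3 samples without overlap, where 13.5% of tested genes were. Spo11 was higher without overlap (0.40, adjusted p = 0.256), where 11.2% were. Psmc3ip had the largest difference, 0.89 (SE 0.39, adjusted p = 0.185), and it rested on the 2 BA50 samples at 74.39 and 74.80 FPKM, while replicate 1 at 22.83 FPKM lay among the B0 samples. Without that replicate it was 1.44. The 9 spermatid genes summed to 5045 to 10934 FPKM in BA50 and 2310 to 3398 FPKM in B0, and their part in the Psmc3ip values was not tested. In BA10 compared to B0, Rec114 (-0.30) and Dmc1 (-0.19) were lower without overlap (background 7.75%), and Mnd1 was at -0.37, with adjusted p of 0.749, 0.77 and 0.749. Dmc1, Meiob and Mei4 stayed at 0.00 to 1.34 FPKM in all 9 busulfan samples, below each untreated value of the same gene.

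**Figure D5:**
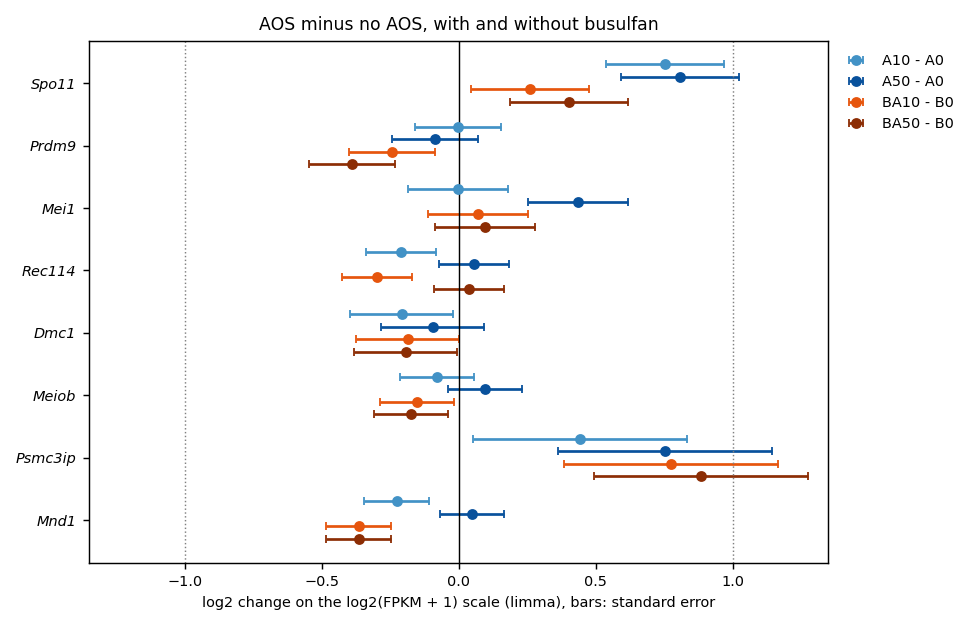
Log2 change of the 8 tested members with 10 or 50 μg/mL AOS, without busulfan (compared to A0) and with busulfan (compared to B0), from log2(FPKM + 1) with bars of 1 SE and dotted lines at a change of 1. No point passes the test, and Spo11 without busulfan and Psmc3ip have the largest positive values.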

How the data were processed

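RNA-seq values of 18 cultured testis samples, 3 in each of 6 groups, were analysed, with groups and replicate numbers taken from the sample labels. The authors prepared poly(A) libraries and deposited 1 FPKM value per gene and sample, to 2 decimals. The supplementary methods name SOAPaligner and RPKM, while the submitters' processing notes name HISAT, Bowtie2, RSEM and GRCm38.p5, so the steps behind the deposited FPKM values are uncertain. Depth is unknown and no counting interval was computed.

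Gene numbers were matched to symbols (20656 of 20811), and positions and overlaps are from GENCODE M21 (GRCm38). Values were tested with limma 3.58.1 in R 4.3.3 (lmFit, then eBayes with a trend) fitted to log2(FPKM + 1), each group having its own coefficient. The fit took the 15790 genes that reached 1 FPKM in 3 or more samples (12 residual and 2.56 prior degrees of freedom). The limits of a call, adjusted p of at most 0.001 and a log2 change of at least 1, take their size from the study's methods. There the size limit is set on the ratio of expression values, and on log2(FPKM + 1) it is stricter for low genes, such as Mei1 and Mnd1 in B0 compared to A0. The study's count-based test cannot be run on FPKM. Single members were tested with exact two-sided permutation tests, computed in Python over 20 splits of 3 against 3 or 8000 splits within AOS concentrations. The cultures were repeated, but the labels do not say whether samples are separate cultures or animals, so p measures the spread between these samples, which may be technical. Tables and figures used Python 3.11.15, pandas 2.3.3, NumPy 2.4.6 and matplotlib 3.10.9.

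The members and gene lists were chosen with earlier results of these data known. All 10 members are named. Of the recombination lists, the genes called in any comparison and the 3 with the largest rise and fall were to be named, and some others are given with them. Of the cell type lists the defining markers were to be named. Stra8, Bhmg1, Rec8, Dazl, Stk31, Sohlh1, Sohlh2, Hormad2, Rad21l, Ccnb1ip1, Hfm1, Shoc1, Tex11 and Rnf212 were added after their values were seen. So were the late spermatocyte genes Piwil1, Ccna1, Ovol2, Pou5f2, Aurkc, Nme8, Mybl1 and Adam2. No value was found for Zcwpw2, Firrm and Spo16. Of the strand exchange list, 1 gene is not reported here and was left out of its counts. Same-numbered samples deviated together in BA50 and B0 (r of 0.56, 0.42 and 0.14), and in each other comparison at least 1 of the 3 was at or below 0.1. The p-values given for BA50 compared to B0 ignore this pairing, which enters only through the replicate block, an alternative fit. Alternatives were the replicate block, a fit restricted to the compared groups, an unfiltered and a strictly filtered table, a pseudocount of 0.1, quantile normalization, no trend, other call limits and each replicate left out. Other experiments of the study were not analysed here.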

Additional observations from a re-analysis of the deposited data

How the results depend on the processing

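Directions of the busulfan changes held under each alternative for the tested members. With a filter on a mean of at least 5 FPKM, which fewer members pass, 1 member was called in B0 compared to A0, in BA10 compared to A10, in BA50 compared to A50 and in the average (otherwise 4, 5, 6 and 6). With only the groups compared in the fit, 2 were called in B0 compared to A0 and 0 in BA10 compared to A10, with fewer samples to estimate the spread, and this fit could not be made for the average, which uses all groups. A ratio of means of at least 2 without a test gave 1, Psmc3ip, in BA50 compared to B0 (otherwise 0). With each replicate left out in turn, the counts were 3 to 5 in B0 compared to A0, 5 to 5 in BA10 compared to A10, 5 to 6 in BA50 compared to A50 and in the average, and 0 to 0 in the AOS comparisons and their differences. The replicate block gave 4, 5, 6 and 6 called and 0 in the AOS comparisons, so the pairing changed no call. A block within the untreated and within the busulfan samples, added after seeing the data, gave 0 as well. Rec114 was not called with quantile normalization in B0 compared to A0 (-0.91), BA50 compared to A50 (-0.94) and the average (-0.96), nor was Mei1 in the average (-0.92), and Mnd1 was called in B0 compared to A0 with a pseudocount of 0.1 (-1.23). The ratio of Meiob to Dmc1 differed by 0.02 with busulfan once 1 FPKM was added. Depth is unknown, so values near 0 carry no known limit.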
